A study of Mus musculus with 4 samples.

Results

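The transcripts described here encode pre-mRNA splicing factors and heterogeneous nuclear ribonucleoproteins (hnRNPs). They were taken by symbol: the Srsf (SR protein), Sf3a and Sf3b, Prpf and numbered Rbm genes, the Hnrnp genes and the Snrp genes a to g, with Snrpn left out. Of 112 RefSeq symbols that fit this pattern, 83 had a probe on the array, 81 of them passed the filter on dim probes, and the array held 16357 named genes in all. The other 29, some of them pseudogenes or antisense RNAs, had no matched probe (among them Hnrnpa0, Hnrnph3, Rbm22, Rbm24, Rbm25, Rbm46, Sf3a3, Snrpf and Srsf11). The 81 were 23 Rbm, 17 hnRNP, 13 Prpf, 10 SR protein, 10 Sm and U snRNP protein and 8 SF3A and SF3B genes, and each was well above background on all 4 arrays. Rbm3, a cold-inducible RNA-binding protein, and Rbm41 were not well above background on any array and were not tested. RNA came from testes of male mice at postnatal day 7 that carry the transgene Tg-Nanos2 enhancer-3xFLAG-Nanos2-3'UTR, in which the enhancer of Nanos2, a gene of male germ cells whose product binds RNA, drives a FLAG-tagged copy of that product. All 4 arrays carry that genotype: 2 measured RNA recovered with the FLAG tag (FLAG IP) and 2 measured Input RNA. The duplicates are stated to be biological, while the animals per sample are not given, so p-values measure the spread between these samples. A description field names an E14.5 gonad, against the day 7 of titles and characteristics, and a FLAG precipitate of untagged testis was not analysed here.

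Splicing removes introns in the nucleus. The U1 particle recognises the start of an intron and the U2 particle its branch point, and a preassembled particle of U4, U6 and U5 then joins to form the catalytic spliceosome. Sm proteins form a ring around the RNA of most of these particles, SF3A and SF3B belong to the U2 particle, and many Prpf proteins belong to the later one. SR proteins mostly promote the use of nearby exons, hnRNPs coat nuclear RNA and often repress splice sites, and the Rbm genes share an RNA recognition motif but differ in function. In the testis, alternative splicing is extensive. The measurements below concern the mRNAs that encode these proteins, not the splicing of other transcripts.

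Every level is the log2 signal relative to the 75th percentile signal of its own array, and every change is FLAG IP minus Input on that log2 scale, with the standard error (SE) of the limma fit and n = 2 arrays per group. Calls are at an adjusted p under 0.05 over 21589 tested features. Across the arrays, 66.3% to 68.4% of 41174 probes were well above background and the 75th percentile signal was 1019 to 1676. All arrays were on 1 slide with 1 scan, and their number limits the precision. Nanos2 itself was called higher in the FLAG IP (1.58 ± 0.22, adjusted p = 0.010). Markers of undifferentiated spermatogonia were higher in 13 of 18 and lower in 1, and their summed level, on the linear scale where the 75th percentile is 1, differed between the groups (Input 9.56 to 9.86, FLAG IP 35.7 to 45.7). Of the general germ cell markers 1 of 9 was higher (Input 76.5, FLAG IP 86.7 to 112). Sertoli cell markers were lower in 8 of 15 (Input 232 to 239, FLAG IP 151 to 163), Leydig cell markers in 5 of 8 (Input 29.5 to 39.0, FLAG IP 13.9 to 17.9), peritubular myoid markers in 5 of 8 (Input 117 to 129, FLAG IP 77.2 to 78.4) and macrophage markers in 5 of 6 (Input 3.57 to 3.61, FLAG IP 1.64 to 1.77). None of the 7 endothelial markers was called by limma, and 2 had an unadjusted p under 0.05 (Input 2.58 to 4.12, FLAG IP 1.83 to 2.85). The testis markers were present: Sox9 and Amh of Sertoli cells and Ddx4 and Dazl of germ cells were well above background on all 4 arrays, whereas Ret and Eomes fell short of it on 2 and 1 Input arrays and Tsx and Lhcgr on both FLAG IP arrays. Both groups are RNA from testes of the same genotype and age, so these values compare RNA recovered with the tag to Input RNA. They do not measure the number of cells of a type or the RNA per cell. The cause of these marker differences, and their part in the results below, was not tested.

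The question behind the design is which mRNAs came down with NANOS2. Most splicing factor transcripts did not pass the test in either direction. Of 81 members 7 were higher (Rbm12, Prpf18, Srsf5, Rbm18, Srsf12, Rbm44 and Prpf4) and 10 were lower (Sf3b1, Snrpd2, Snrpa, Snrpc, Rbm26, Hnrnpul1, Hnrnpa2b1, Snrpb, Snrpa1 and Sf3b6), that is 8.64% and 12.3%, while 15.8% of all tested features were higher and 21.3% lower. The share called in either direction was 21.0% of the members and 37.1% of all tested features, a description with no test of the list. Among the 13253 tested features with a gene symbol, 16.2% were higher, 18.9% lower and 35.2% either. The members were brighter than both backgrounds: the median Input level was 2.87 for the members, 0.092 for features with a symbol and −0.93 for all features. Both FLAG IP arrays lay above both Input arrays for 23 members and below for 37, against 29.8% and 44.7% of all features. A change of 2-fold or more was called higher for Rbm12 and Prpf18 and lower for Sf3b1, Snrpd2, Snrpa, Snrpc and Rbm26, against 9.29% higher and 8.65% lower of all features. The median change of the members was −0.092, of all features −0.15, and 52 of the 81 had a change smaller than 0.5 in size. The number of calls depended on which array was left out. Without Input replicate 1 only Rbm12 was called higher and only Sf3b1 lower, and without Input replicate 2 only Rbm12 was called (limma, where 10 members were lower at an unadjusted p under 0.05). Over all features those fits called 4.53% higher and 3.27% lower, and 4.68% and 2.56%. Without FLAG IP replicate 1 there were 17 higher and 9 lower members (21.0% and 11.1%, beside 15.3% and 19.6% of all features). Without FLAG IP replicate 2 there were 5 and 18 (6.17% and 22.2%, beside 17.3% and 21.2% of all features). Normexp background correction called 10 members higher and 17 lower (12.3% and 21.0%, beside 18.8% and 19.8% of all features). The smaller share of lower calls among the members was therefore not seen there. Quantile normalization called 15 members higher and 9 lower (18.5% and 11.1%, beside 17.1% and 19.3% of all features). The smaller share of higher calls among the members than among all features was therefore not seen under quantile normalization or without FLAG IP replicate 1. Single calls were lost in several fits: Snrpb, Sf3b6 and Prpf4 without FLAG IP replicate 1, Prpf4, Hnrnpa2b1 and Rbm44 without FLAG IP replicate 2, Hnrnpul1, Rbm26 and Rbm18 with the probes of a gene averaged, Sf3b6 and Hnrnpa2b1 under quantile normalization, and Snrpc, Snrpb, Sf3b6, Prpf4, Hnrnpa2b1 and Rbm44 without a filter on dim probes. With the replicate number as a block 9 of the 17 calls held. Lost there were Snrpb, Snrpa1, Sf3b6, Hnrnpul1, Hnrnpa2b1, Srsf12, Rbm44 and Prpf4. Scaled to spike-in control spots, the median of all features moved from −0.15 to −1.12 and that of the members to −1.07. There 57 members were called lower and 0 higher by limma (70.4% and 0%, beside 64.3% and 2.73% of all features), and also 0 higher at an unadjusted p under 0.05. Directions are therefore relative to the bulk of the transcripts, and under the spike-in scaling the 5 called genes Srsf5, Rbm18, Srsf12, Rbm44 and Prpf4 lay below 0, while Rbm12 and Prpf18 stayed above it at 0.42 and 0.18 without a call.

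**Figure D1:**
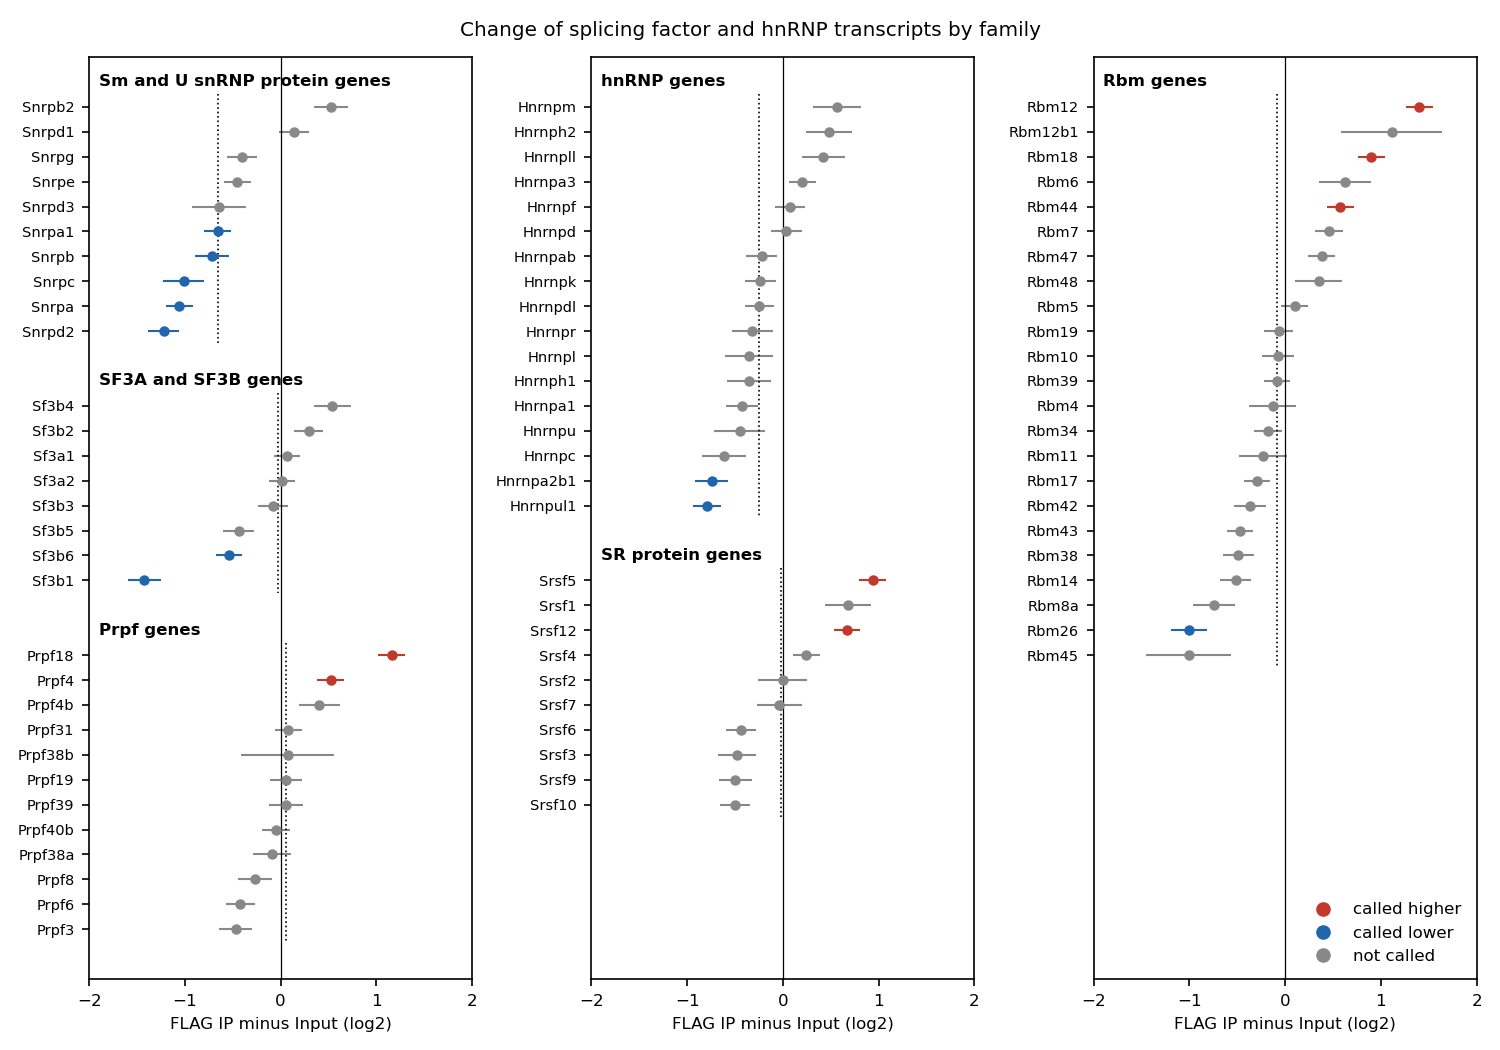
Change of 80 of the 81 tested members (horizontal axis, FLAG IP minus Input, log2; points are estimates and bars ± 1 SE with n = 2 arrays per group), in 6 families. Red and blue mark members called higher and lower, and the dotted line is the family median, which lies at −0.65 for the Sm and U snRNP protein genes and between −0.25 and 0.057 for the other families.

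Transcripts of the Sm and U snRNP proteins held 5 of the 10 decreases among the members. Of 10 tested genes, 5 fell (50%, beside 21.3% of all features), and the other 5 were not called. The family median was −0.65, and the FLAG IP arrays lay below both Input arrays for 8 of the 10, against 44.7% of all features. Snrpd2 (NM_026943), a subunit of the Sm ring, had levels of 3.44 and 3.18 in the Input arrays and 2.02 and 2.15 in the FLAG IP arrays. The groups did not overlap, and Snrpd2 fell by 1.22 ± 0.16 (2.33-fold, adjusted p = 0.0096). Snrpa (NM_015782) encodes the U1 particle's A protein, which binds a stem-loop of the U1 RNA, and its levels were 2.14 and 2.0 in the Input arrays and 0.99 and 1.03 in the FLAG IP arrays. Both FLAG IP arrays were about equally low, and Snrpa fell by 1.06 ± 0.14 (2.08-fold, adjusted p = 0.0095). Snrpc, the U1 C protein that contacts the 5′ splice site, had levels of 4.61 and 4.38 in the Input arrays and 3.26 and 3.71 in the FLAG IP arrays. It fell by 1.01 ± 0.21 (adjusted p = 0.024), with the first FLAG IP array the lower of the pair. Snrpb, which encodes the SmB and SmB′ proteins, fell by 0.72 ± 0.18 (adjusted p = 0.036), from 3.73 ± 0.21 to 3.01 ± 0.15 (SD, n = 2 each). Snrpa1, the A′ protein of the U2 particle, fell by 0.66 ± 0.14 (adjusted p = 0.024), from 2.60 ± 0.041 to 1.94 ± 0.061.

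The remaining Sm proteins were not called. Snrpd3 had a change of −0.65 ± 0.28 (adjusted p = 0.13), with levels of 4.52 and 4.56 in the Input arrays and 3.51 and 4.27 in the FLAG IP arrays, so that the FLAG IP replicates were further apart than the Input replicates. Snrpe had −0.45 ± 0.14 (adjusted p = 0.062), Snrpg −0.40 ± 0.16 (adjusted p = 0.11) and Snrpd1 0.14 ± 0.16 (adjusted p = 0.52). Snrpb2, the B″ protein that pairs with Snrpa1's product on the U2 RNA, had a change of 0.52 ± 0.18 (adjusted p = 0.076, 95% interval 0.060 to 0.98), with both FLAG IP arrays above both Input arrays. The products of Snrpa and Snrpb2 are close relatives, whose mRNAs had changes of −1.06 and 0.52, a difference that was not tested. The third protein specific to the U1 particle, Snrnp70, lies outside the symbol rule and had a change of 4.3e-04 ± 0.14 (95% interval −0.36 to 0.36).

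**Figure D2:**
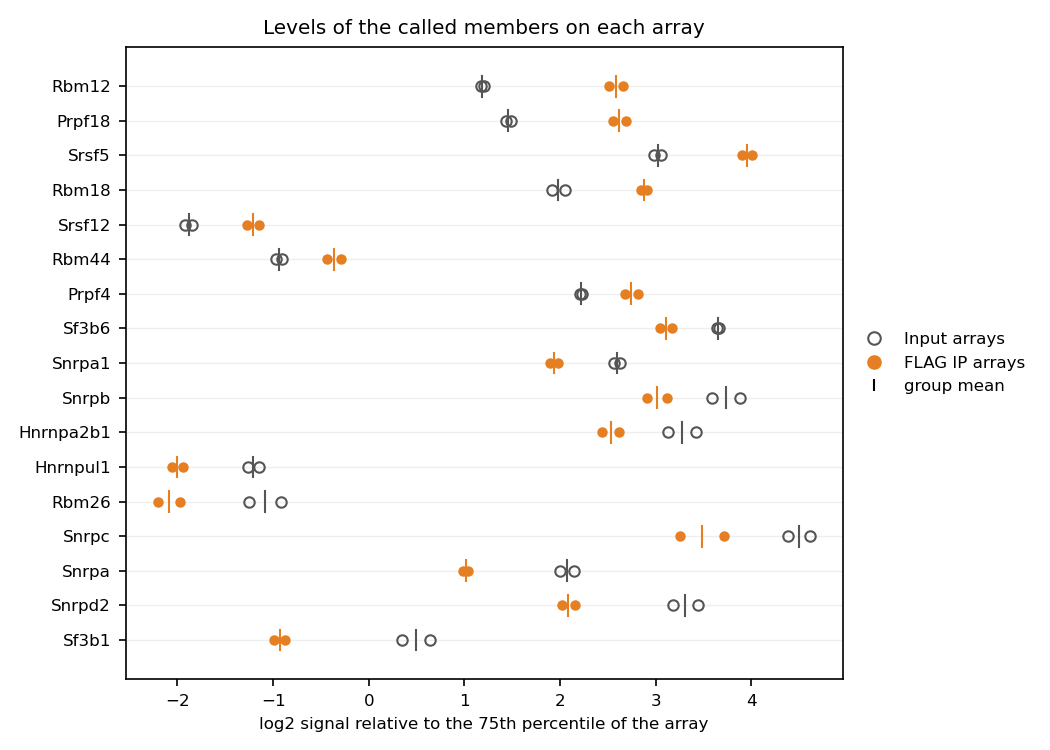
Level of the 17 called members on each array (horizontal axis, log2 signal relative to the array's 75th percentile; open circles Input, filled circles FLAG IP, ticks group means, n = 2 each), ordered by change. For each of the 17, which were called on these same values, the FLAG IP arrays lie wholly above or wholly below the Input arrays. Over all tested features 29.8% lay above and 44.7% below.

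Of the 8 SF3A and SF3B transcripts, whose products make the U2 particle bind the branch point, 2 fell (25%, beside 21.3% of all features). The other 6 were not called, and the median was −0.030. Sf3b1 (NM_031179) encodes the large scaffold that closes around the branch point, and its levels were 0.34 and 0.64 in the Input arrays and −0.87 and −0.99 in the FLAG IP arrays. The FLAG IP arrays were far below the Input arrays, and Sf3b1 fell by 1.42 ± 0.17 (2.68-fold, adjusted p = 0.0077), the largest decrease among the members. The value belongs to the brighter of 2 probes, and the other had −0.25 (adjusted p = 0.24). Sf3b6, the small subunit that touches the branch point adenosine, fell by 0.54 ± 0.14 (adjusted p = 0.039), with levels of 3.64 and 3.66 in the Input arrays and 3.04 and 3.17 in the FLAG IP arrays. Its call held in 1 of 4 fits that left out 1 array (highest adjusted p = 0.22). Among those not called, Sf3b4 had 0.54 ± 0.19 (adjusted p = 0.087), Sf3b5 −0.44 ± 0.16 (adjusted p = 0.093) and Sf3b2 0.29 ± 0.15 (adjusted p = 0.18). Sf3b3 (−0.076 ± 0.16), Sf3a1 (0.069 ± 0.14) and Sf3a2 (0.017 ± 0.14) had overlapping arrays, with 95% intervals that reached no further than −0.48 and 0.43.

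Of the 13 Prpf transcripts 2 rose (15.4%, beside 15.8% of all features), 11 were not called and the median was 0.057. Prpf18 (NM_026045) encodes a factor of the second catalytic step, and its levels were 1.43 and 1.48 in the Input arrays and 2.55 and 2.69 in the FLAG IP arrays. All FLAG IP values lay above all Input values, and Prpf18 rose by 1.16 ± 0.14 (2.24-fold, adjusted p = 0.0080). Prpf4, which with Prpf3 binds the paired U4 and U6 RNAs, rose by 0.52 ± 0.14 (adjusted p = 0.043), with levels of 2.21 and 2.23 in the Input arrays and 2.67 and 2.81 in the FLAG IP arrays. Its call held in 0 of the 4 limma fits that left out 1 array (adjusted p = 0.050 to 0.25), and Prpf4 had an unadjusted p under 0.05 in 2 of them. The partner Prpf3 had −0.47 ± 0.17 (adjusted p = 0.090), Prpf31, which binds the same particle, 0.079 ± 0.14 (adjusted p = 0.68), and Prpf6, which bridges it to U5, −0.42 ± 0.15 (adjusted p = 0.084). Prpf8, the scaffold at the catalytic core, had −0.27 ± 0.18 (adjusted p = 0.29), with levels of 2.61 and 2.69 in the Input arrays and 2.57 and 2.20 in the FLAG IP arrays. Prpf19, a ubiquitin ligase of the activated spliceosome, had 0.057 ± 0.16 (95% interval −0.37 to 0.49). Prpf38b differed widely between FLAG IP replicates (−0.82 and 0.54), and its change was 0.075 ± 0.49 (95% interval −1.20 to 1.35). Prpf4b, a kinase, had 0.40 ± 0.21 and Prpf38a, Prpf39 and Prpf40b had −0.092, 0.052 and −0.052.

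Of the 10 SR protein transcripts, which encode exon-activating factors with arginine-serine domains, 2 rose (20%, beside 15.8% of all features). The other 8 were not called, and the median was −0.019. Srsf5 (NM_009159) had levels of 2.98 and 3.05 in the Input arrays and 4.01 and 3.90 in the FLAG IP arrays, with no overlap, and rose by 0.94 ± 0.14 (1.91-fold, adjusted p = 0.012). Srsf12, a relative of Srsf10, had levels of −1.93 and −1.84 in the Input arrays and −1.15 and −1.28 in the FLAG IP arrays and rose by 0.67 ± 0.14 (1.59-fold, adjusted p = 0.025). Srsf1, the founding member of the family, had a change of 0.68 ± 0.24 (adjusted p = 0.081), with levels of 2.97 and 2.82 in the Input arrays and 3.28 and 3.87 in the FLAG IP arrays. At this probe the FLAG IP values of Srsf1 exceeded the Input, but they were apart from each other by 0.59. The dimmer probe of Srsf1 had −0.43 ± 0.44 (adjusted p = 0.48 in the limma fit of single probes). Srsf2, which recognises exonic enhancers, had 4.13 and 4.13 in the Input arrays and 3.80 and 4.46 in the FLAG IP arrays, so that the Input values lay between the FLAG IP values, and a change of −0.0024 ± 0.25 (95% interval −0.67 to 0.66). Srsf7 showed the same arrangement, with a change of −0.036 ± 0.23 (95% interval −0.64 to 0.57), while its relative Srsf3 had −0.48 ± 0.20 (adjusted p = 0.12). Srsf10, Srsf9 and Srsf6 had changes of −0.50 ± 0.16, −0.50 ± 0.17 and −0.44 ± 0.16, with adjusted p = 0.062, 0.081 and 0.089, and both FLAG IP arrays below both Input arrays. Srsf4 had 0.25 ± 0.15.

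Of the 17 hnRNP transcripts 2 fell (11.8%, beside 21.3% of all features), 15 were not called and the median was −0.25. Hnrnpul1 (NM_178089), a relative of Hnrnpu, had levels of −1.26 and −1.15 in the Input arrays and −1.94 and −2.06 in the FLAG IP arrays and fell by 0.79 ± 0.14 (1.73-fold, adjusted p = 0.017). Hnrnpa2b1 (NM_182650), which binds nuclear RNA and takes part in RNA transport, had levels of 3.13 and 3.42 in the Input arrays and 2.62 and 2.44 in the FLAG IP arrays. The groups did not overlap, and it fell by 0.74 ± 0.17 (1.68-fold, adjusted p = 0.031). With 1 array left out, the call held in 2 of 4 fits for Hnrnpul1 and in 1 of 4 for Hnrnpa2b1 (highest adjusted p = 0.13 and 0.19).

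The other 15 hnRNP transcripts were not called. Hnrnpc, which packages long introns, had −0.62 ± 0.23 (adjusted p = 0.095), Hnrnpa1, a repressor of splice sites, −0.42 ± 0.17 (adjusted p = 0.11), and Hnrnpu, a scaffold of nuclear RNA and chromatin, −0.45 ± 0.27 (adjusted p = 0.24). The signal of Hnrnpk, a KH-domain protein that binds C-rich RNA, was 6.73 and 6.50 in the Input arrays and 6.30 and 6.47 in the FLAG IP arrays, and its change was −0.23 ± 0.16 (95% interval −0.66 to 0.19). Hnrnpd, also known as AUF1 and a regulator of AU-rich mRNA, had 0.035 ± 0.16 (95% interval −0.38 to 0.45), and Hnrnpf 0.078 ± 0.16 (95% interval −0.33 to 0.49). Hnrnpm had the highest change of the family, 0.56 ± 0.25 (adjusted p = 0.14), with levels of 5.08 and 4.76 in the Input arrays and 5.19 and 5.76 in the FLAG IP arrays. At the brightest probes related genes differed in sign without passing the test: Hnrnph1 had −0.35 ± 0.23 and Hnrnph2 0.48 ± 0.24, and Hnrnpl had −0.35 ± 0.25 and Hnrnpll 0.42 ± 0.22. The other Hnrnpll probe, of nearly the same brightness, had −0.20 ± 0.21, so the sign for Hnrnpll depends on the probe. The differences within these pairs were not tested. The changes of Hnrnpr, Hnrnpdl, Hnrnpab and Hnrnpa3 were −0.32, −0.25, −0.22 and 0.20.

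The Rbm genes covered the widest range of changes among the families. Of 23 tested, 3 rose (13.0%, beside 15.8% of all features), 1 fell (4.35%, beside 21.3%) and 19 were not called. The changes ran from −1.01 to 1.40 about a median of −0.086. Rbm12 (NM_029397), a protein with several RNA recognition motifs, had levels of 1.17 and 1.20 in the Input arrays and 2.51 and 2.66 in the FLAG IP arrays. The replicates of each group lay close together, and Rbm12 rose by 1.40 ± 0.14 (2.64-fold, adjusted p = 0.0061), the largest increase among the members and the only member call that held when any 1 of the 4 arrays was left out. Rbm18 had levels of 1.91 and 2.05 in the Input arrays and 2.91 and 2.84 in the FLAG IP arrays and rose by 0.90 ± 0.14 (1.86-fold, adjusted p = 0.013). Rbm44, a protein of intercellular bridges between germ cells, had levels of −0.97 and −0.91 in the Input arrays and −0.43 and −0.29 in the FLAG IP arrays and rose by 0.57 ± 0.14 (1.49-fold, adjusted p = 0.035). Rbm26 (NM_134077), a zinc finger protein linked to nuclear RNA decay, had levels of −1.25 and −0.92 in the Input arrays and −1.98 and −2.20 in the FLAG IP arrays and fell by 1.0 ± 0.19 (adjusted p = 0.019).

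A pair of Rbm genes had changes of 2-fold size without a call. Rbm45 had levels of −1.0 and −1.78 in the Input arrays and −2.92 and −1.88 in the FLAG IP arrays, a change of −1.01 ± 0.44 (adjusted p = 0.13). Rbm12b1, whose near-identical copy Rbm12b2 had no matched probe, had levels of 0.40 and 0.38 in the Input arrays and 0.71 and 2.29 in the FLAG IP arrays, so that its change of 1.11 ± 0.53 (adjusted p = 0.16) came mainly from the second FLAG IP array. Rbm8a, the Y14 subunit of the exon junction complex deposited on spliced mRNA, had levels of 4.36 and 4.31 in the Input arrays and 3.32 and 3.86 in the FLAG IP arrays and a change of −0.75 ± 0.22 (adjusted p = 0.056). Its dimmer probe had 0.73 ± 0.37 (adjusted p = 0.18 in the limma fit of single probes). The related tumour suppressors Rbm5, Rbm6 and Rbm10, regulators of exon choice in apoptosis genes, had changes of 0.10 ± 0.14, 0.62 ± 0.27 and −0.073 ± 0.17, none of them called. Rbm7, a subunit of a nuclear exosome adaptor, had 0.46 ± 0.14 (adjusted p = 0.062), Rbm14, a coactivator found in paraspeckles, −0.52 ± 0.16 (adjusted p = 0.060), and Rbm43 −0.47 ± 0.13 (adjusted p = 0.051). The other 10, Rbm4 (which has a near-identical copy, Rbm4b), Rbm11, Rbm17, Rbm19, Rbm34, Rbm38, Rbm39, Rbm42, Rbm47 and Rbm48, had changes from −0.49 to 0.38.

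Several probes for 1 gene gave a second reading of the same transcripts. Of the 81 members 36 had more than 1 tested probe. For 21 of them all probes lay on the same side of 0, and for 15 on both sides. The median range between the probes of a member was 0.52, against 0.33 over all 4399 genes with more than 1 tested probe. In a limma fit of the 27823 single probes, Snrpa fell at all 3 of its probes (−1.06, −1.15 and −1.23, adjusted p = 0.0099 to 0.020) and Srsf5 rose at both (0.94 and 0.66, adjusted p = 0.012 and 0.026). Those were the 2 members with all of several probes called the same way. Prpf18 rose at 2 of 3 (1.16 and 1.21), with 0.091 at the third.

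Elsewhere the probes disagreed. Rbm26 had −1.0 at its brighter probe and 0.41 at the other (adjusted p = 0.073), whose levels were −2.0 and −1.95 in the Input arrays and −1.58 and −1.56 in the FLAG IP arrays. Rbm18 had 0.90 and −0.15, and Hnrnpul1 −0.79 and 0.067, so that the calls of these 3 genes rest on 1 probe each. The calls of Sf3b1 and Prpf4 likewise rest on 1 of 2 probes. Their other probes had −0.25 and 0.48 (adjusted p = 0.24 and 0.12 in the limma fit of single probes). For the called Rbm12, Srsf12, Rbm44, Snrpd2, Snrpc, Snrpb, Snrpa1, Hnrnpa2b1 and Sf3b6 only 1 probe was tested, so no second reading exists. Hnrnpa3 was the only member called both ways: its brightest probe had 0.20, the next 0.80 (adjusted p = 0.015), the third −0.87 (adjusted p = 0.020) and the fourth −0.086. The second had levels of 4.18 and 4.15 in the Input arrays and 4.97 and 4.96 in the FLAG IP arrays and the third of 1.12 and 0.97 in the Input arrays and 0.056 and 0.30 in the FLAG IP arrays, with no overlap of the groups at either. Some hnRNP genes that were not called at their brightest probe were called lower at another. Hnrnpk had −1.49 (adjusted p = 0.0070) at its second probe, with levels of 0.68 and 0.51 in the Input arrays and −1.01 and −0.78 in the FLAG IP arrays. Hnrnpa1 had −1.38 and −1.18 (adjusted p = 0.015 and 0.021), and Hnrnpab −0.65 (adjusted p = 0.036) at the second and 0.17 at the third. Outside the hnRNP genes, Prpf31 was likewise not called at its brightest probe and had −0.75 (adjusted p = 0.033) at the other. Hnrnpa1 has many processed pseudogenes, and which copies or transcript forms each probe detects was not tested.

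**Figure D3:**
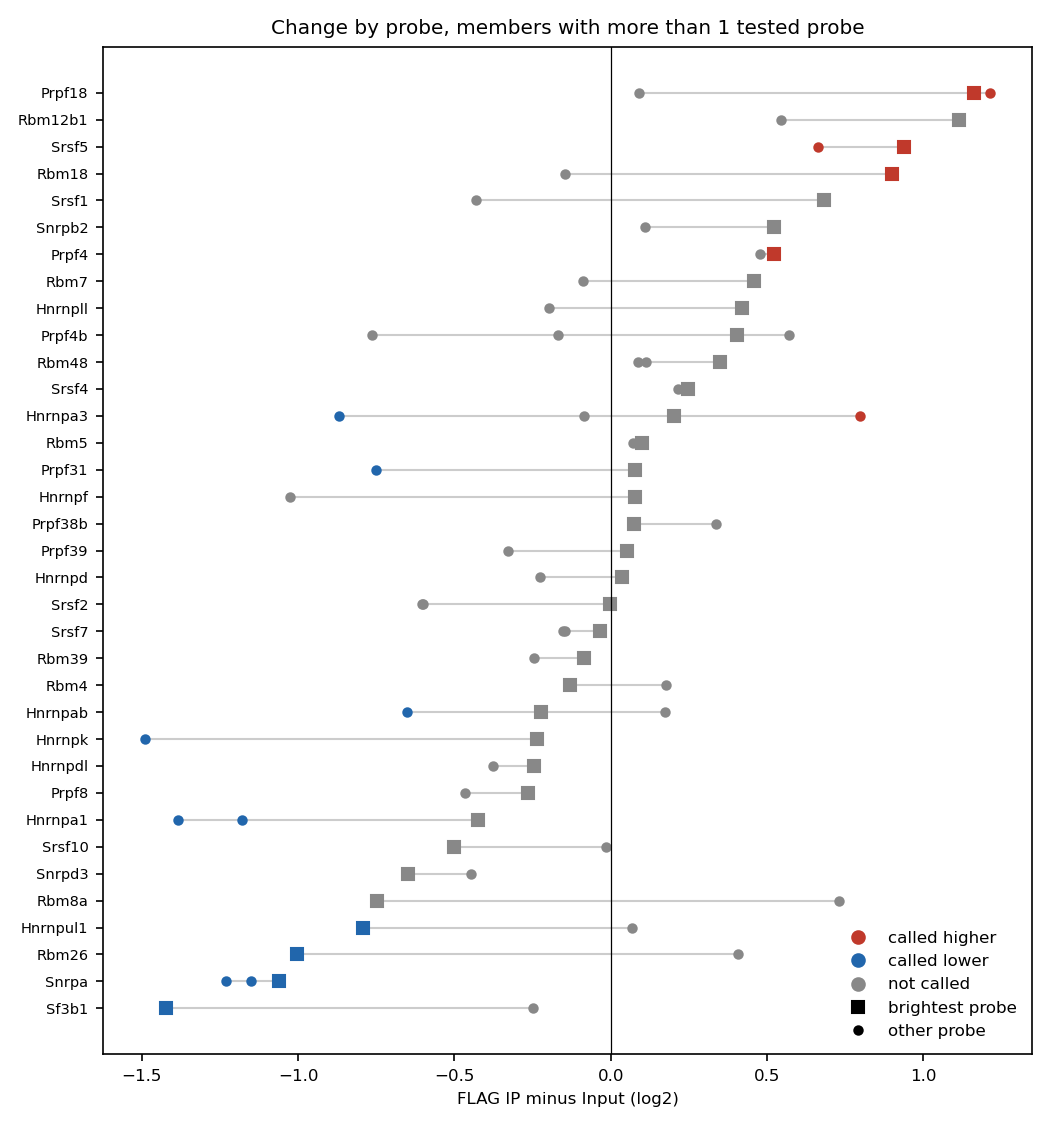
Change at each tested probe (horizontal axis, FLAG IP minus Input, log2) of 35 of the 36 members with more than 1 tested probe, ordered by the brightest probe (squares; circles are the other probes, red and blue mark calls in the fit of single probes). The probes of Snrpa and Srsf5 stay together, while those of Hnrnpa3, Hnrnpk, Hnrnpa1 and Rbm26 lie far apart.

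The FLAG IP arrays differed from each other more than the Input arrays did, for these genes as over all features. The SD over members of the difference between replicates was 0.36 for FLAG IP and 0.19 for Input, and over all features it was 0.47 and 0.33. FLAG IP replicate 2 was the higher for 60 of 81 members (74.1%), against 45.1% of all features. The share was 74.7% of the 79 spliceosome and exon junction complex genes outside the symbol rule, 62.0% of the 92 other splicing regulators and 88.9% of the 9 germ cell markers, so it is not particular to the members. Replicate 2 was higher by 0.5 or more for 21 members, among them Rbm12b1, Prpf38b, Rbm45 and Snrpd3, and for 8.50% of all features, whereas no member was lower by that much. The median change of the members was −0.31 from replicate 1 alone and −0.033 from replicate 2 alone, each against the Input mean. The Sm and U snRNP protein family was below Input in both (−0.76 and −0.53), while the SR protein median changed sign (−0.33 and 0.21), as did those of the Prpf (−0.084 and 0.13) and Rbm genes (−0.13 and 0.025). Across the 81 members the change had a Pearson correlation of −0.085 and a Spearman correlation of −0.13 with the Input level, both values coming from the same Input arrays. Over the 13253 tested features with a symbol these correlations were −0.25 and −0.22.

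**Figure D4:**
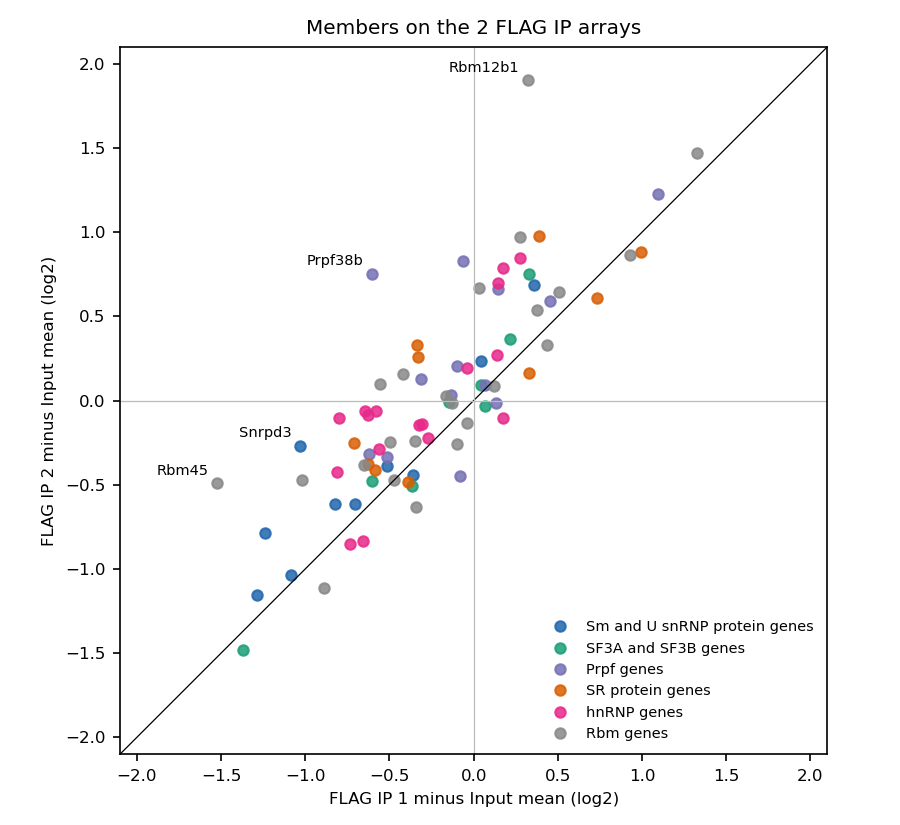
Level of each member on FLAG IP array 1 (horizontal) and FLAG IP array 2 (vertical), each minus the mean of the Input arrays (log2), coloured by family; the diagonal marks equal values. Of 81 points 60 lie above the diagonal, and most of the members farthest from it are named.

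Other splicing genes, listed by function rather than by symbol, give the surroundings of these families. Among 79 tested genes of the spliceosome, its assembly factors and the exon junction complex, 9 were higher and 16 lower (11.4% and 20.3%, beside 15.8% and 21.3% of all features). The median of these genes was −0.11. Sf1, which binds the branch point before the U2 particle, rose by 1.09 ± 0.16 (adjusted p = 0.012), and U2af2, its partner on the polypyrimidine tract, fell by 1.1 ± 0.25 (adjusted p = 0.029) at the brighter probe, with −1.22 at the other. U2af1 had −0.53 ± 0.20 (adjusted p = 0.094). Smn1, which loads Sm proteins onto snRNAs, fell by 1.0 ± 0.14 (adjusted p = 0.011). Among the Gemin genes, Gemin5 had −0.58 ± 0.13 (adjusted p = 0.030) and Gemin8 0.56 ± 0.13 (adjusted p = 0.032). Gemin2, Gemin4, Gemin6 and Gemin7 were not called. Within the U5 particle, the helicase Snrnp200 fell by 0.83 ± 0.13 (adjusted p = 0.014) and the GTPase Eftud2 rose by 0.63 ± 0.13 (adjusted p = 0.024), beside −0.27 for Prpf8. Of the other genes with the largest called changes, Lsm11, a subunit of the U7 particle, rose by 0.88 ± 0.15 (adjusted p = 0.015), Snrnp48 by 0.81 ± 0.14 (adjusted p = 0.016) and Rnps1 by 0.69 ± 0.16 (adjusted p = 0.031). The other probes of Snrnp48 and Rnps1 had 0.40 and 0.32 (adjusted p = 0.11 and 0.33 in the limma fit of single probes). Thoc1 of the mRNA export complex fell by 1.15 ± 0.26 (adjusted p = 0.029), with −0.12 at its other probe, and Cwc15 fell by 0.97 ± 0.18 (adjusted p = 0.018).

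Splicing regulators outside the symbol rule covered a wider range of changes than the members. Of 92 tested, 20 were higher and 14 lower (21.7% and 15.2%, beside 15.8% and 21.3% of all features). Their median was 0.087, with changes from −1.87 to 2.27. The list and its counts include genes whose main role is not splicing, such as Ssrp1 and Nudt21, which were called lower. Luc7l2, a relative of a yeast U1 protein, had levels of −0.078 and 0.50 in the Input arrays and 2.40 and 2.55 in the FLAG IP arrays and rose by 2.27 ± 0.23 (4.81-fold, adjusted p = 0.0064). The neuronal-type AU-rich binding proteins Elavl4 and Elavl2 rose by 2.21 ± 0.17 and 1.92 ± 0.16, and Rbpms2 by 2.18 ± 0.15, with adjusted p = 0.0043, 0.0048 and 0.0040. Tra2a, an SR-like protein, had levels of 3.68 and 3.67 in the Input arrays and 4.79 and 4.93 in the FLAG IP arrays and rose by 1.18 ± 0.14 (adjusted p = 0.0077), with 0.19 at its other probe, while Tra2b had −0.16 ± 0.26 (adjusted p = 0.65). Ptbp2, the polypyrimidine tract protein of neurons and germ cells, rose by 0.88 ± 0.15 (adjusted p = 0.015), and Ptbp1 had −0.077 ± 0.14 (95% interval −0.44 to 0.29). On the lower side, Raly, an hnRNP C relative, fell by 1.87 ± 0.19 (adjusted p = 0.0060), with levels of 4.57 and 4.18 in the Input arrays and 2.54 and 2.47 in the FLAG IP arrays. Srrm1, an SR-related matrix protein, fell by 1.32 ± 0.32 (adjusted p = 0.034) and was well above background on 1 of 2 FLAG IP arrays, Rbms2 fell by 1.25 ± 0.14 (adjusted p = 0.0068) and Taf15 by 1.25 ± 0.19 (adjusted p = 0.013). The other probe of Taf15 had −0.69 (adjusted p = 0.16 in the limma fit of single probes). Rbmx, the hnRNP G gene of the X chromosome, fell by 0.80 ± 0.17 (adjusted p = 0.024). The share called was 37.0% in this list and 31.6% in the spliceosome list, against 21.0% of the members and 37.1% of all features. The differences between these shares were not tested.

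**Figure D5:**
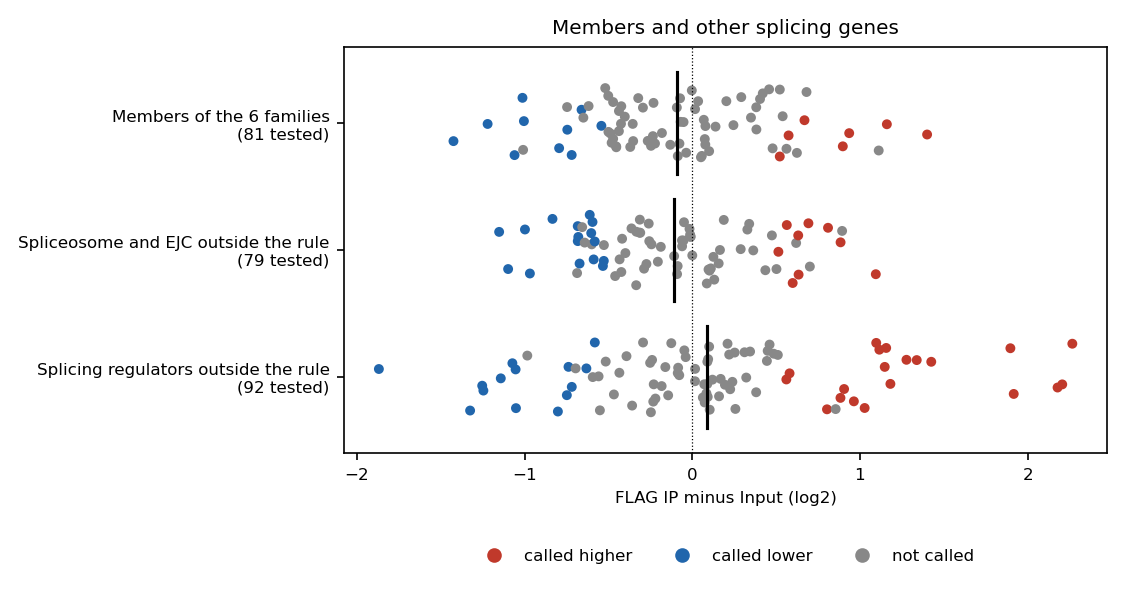
Change of the 81 members, of 79 other genes of the spliceosome and exon junction complex (EJC) and of 92 other splicing regulators (horizontal axis, FLAG IP minus Input, log2; 1 point a gene, spread vertically at random, black bars are medians). Red and blue mark called genes; the regulators reach 2.27, beyond the highest member at 1.40.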

How the data were processed

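The 4 arrays were single-colour (Cy3) Agilent mouse arrays. Per the file headers, the deposited intensity values are spot signals from Agilent Feature Extraction (9.5, per the submitters' processing notes), background-subtracted in the processed signal. The authors' deposited table of the series holds log2 values; set against the scanner files, the columns differed from the log2 processed signal by 1 constant per array, to within 0.01, for 99.6% of probes or more, with the 75th percentile at 9.76 and medians of 6.18, 6.25, 6.25 and 6.15 (Input 1, Input 2, FLAG IP 1, FLAG IP 2). What software did that scaling was not given in the labels.

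Control spots and 62 to 90 outlier spots per array were left out, spots of a probe were averaged on the log2 scale, and the array's 75th percentile was subtracted. Probes were named by matching their accession, without version, to RefSeq transcripts of GRCm38.p6 (22951 of 41174 probes). Since the array was designed on another build, no coordinates are given. The brightest probe stood for a gene. Features well above background (at least 0.5 of a probe's spots) on both arrays of a group were tested with limma 3.58.1 in R 4.3.3 (two-sided, no covariates, Benjamini-Hochberg over 21589 features), a script also tested on simulated data. The members, lists and tests were chosen with earlier results of these data known. Named were members called at 2-fold or more, the 4 largest changes per family, extremes of Input level, genes with discordant probes and genes fixed singly; further members were named to account for the rest, except 1 member that is not reported here. Mean signals were not in the files, so normexp used median signals. The alternatives also covered quantile and spike-in scaling, filters, averaged probes, a replicate block, moderation, the deposited values and leaving out each array. The slide could not serve as a block, since 1 slide held all arrays.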

Additional observations from a re-analysis of the deposited data

How the results depend on the processing

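Of the 17 member calls, all 17 held under normexp background correction, under a filter requiring all 4 arrays, with the deposited values and with trend and robust moderation. Under normexp, 10 members were higher and 17 lower (12.3% and 21.0%, beside 18.8% and 19.8% of all features). The median of all features there was −2.2e-04. With trend and robust moderation 11 members were higher and 18 lower (13.6% and 22.2%, beside 17.0% and 24.5% of all features). Quantile normalization kept 15 and called 15 members higher, with medians of 0.014 for all members, 0.18 for SR protein and 0.026 for Rbm genes. Averaged probes kept 14, with medians of −0.18 and, for SR protein genes, −0.19. Without a filter on dim probes 11 held, 6 members were lower and 3019 features were lower. Scaling to spike-in spots gave 590 features higher and 13873 lower (2.73% and 64.3%), and 0 members higher and 57 lower (0% and 70.4%). This scaling gave medians of −1.07 for all members and, in the order of Sm and U snRNP, SF3A and SF3B, Prpf, SR, hnRNP and Rbm genes, −1.63, −1.01, −0.92, −1.0, −1.22 and −1.06. Under it the called Prpf4 (−0.46), Srsf12 (−0.31), Srsf5 (−0.041), Rbm44 (−0.40) and Rbm18 (−0.079) turned negative, and the uncalled Sf3a2 (−0.96), Sf3a1 (−0.91), Prpf39 (−0.93), Prpf19 (−0.92), Prpf38b (−0.90), Prpf31 (−0.90), Hnrnpd (−0.94), Hnrnpf (−0.90) and Rbm5 (−0.88) were called lower.

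Leaving out 1 array in turn gave 977 to 3726 features higher and 552 to 4572 lower, and 1 to 17 members higher and 0 to 18 lower. The member median ran from −0.31 to −0.033, and the family medians from −0.76 to −0.53 (Sm and U snRNP), −0.10 to 0.022 (SF3A and SF3B), −0.084 to 0.13 (Prpf), −0.33 to 0.21 (SR), −0.35 to −0.10 (hnRNP) and −0.14 to 0.025 (Rbm). With only 3 arrays fewer degrees of freedom remain. Arrays with the same replicate number share only that number here, and their deviations correlated at −0.38. With the replicate number as a block, 2269 features were higher and 2289 lower (10.5% and 10.6%), and 4 members higher and 5 lower (4.94% and 6.17%). Of the 17 member calls 9 held there. A crossed pairing, added after that correlation was seen, kept all 17. It gave 12 members higher and 22 lower (14.8% and 27.2%), and 4321 features higher and 6497 lower (20.0% and 30.1%). The cause of these shifts was not tested. All 81 tested members were well above background on all 4 arrays, at levels down to −4.21 in the Input mean, and an effect of signal level on the calls was not tested.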
